A study of Homo sapiens with 12 samples.

Results

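The dual-specificity MAP kinase phosphatases are a small family of enzymes that switch off MAP kinases. They are represented here by members chosen by name, the 10 genes DUSP1, DUSP2, DUSP4, DUSP5, DUSP6, DUSP7, DUSP8, DUSP10, DUSP14 and DUSP16 among the 19901 protein-coding genes counted. Other dual-specificity phosphatases, DUSP9 among them, were placed in a separate list. All 10 had a row in the table and all 10 passed the filter on low counts (at least 10 counts in at least 6 libraries). The data were RNA-Seq read counts from HCT116 cells, a line from a human colorectal carcinoma, in which both alleles of KAP1 (the protein of the TRIM28 gene) had been given a degradation tag. All 12 libraries came from 1 clone of this line, CloneD5, and every group went without serum for 48 h. In DMSO-S0 the cells then received the solvent DMSO for the last 8 h and no serum, and in DMSO-S30 they received DMSO for 8 h and then serum for 30 min. In dTAG-S0 and dTAG-S30 the cells received dTAG, a small molecule that sends the tagged KAP1 to the proteasome, for 8 h in place of DMSO, without serum and with 30 min of serum. Each group held 3 libraries, which the methods call biological replicates. The design asked how cells with KAP1 and cells depleted of KAP1 respond to serum.

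MAP kinases are switched on when both a threonine and a tyrosine of their activation loop are phosphorylated, and dual-specificity phosphatases remove both phosphates. Growth factors in serum act through RAS, RAF and MEK on the kinases ERK1 and ERK2, and stress signals act on JNK and p38. Several of the phosphatase genes are themselves switched on by the pathway that their products shut down, which makes them a textbook case of negative feedback. DUSP1, DUSP2, DUSP4 and DUSP5 encode the nuclear, inducible members, DUSP6 and DUSP7 encode cytoplasmic members that prefer ERK, DUSP8, DUSP10 and DUSP16 encode members that prefer JNK and p38, and DUSP14 encodes a small member without the domain that docks on MAP kinases.

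Total counts were 20537682 to 26278707 per library, of which ERCC spike-in RNA took 7.97 to 9.37%. TRIM28 RNA was 96.9 ± 4.74 normalised CPM (counts per 1000000 of the scaled library size, SD, n = 3) in DMSO-S0, 115 ± 5.71 in DMSO-S30, 92.6 ± 6.27 in dTAG-S0 and 112 ± 7.87 in dTAG-S30. Since dTAG acts on the protein, this transcript is no check of the depletion. The epithelial markers EPCAM, KRT8, KRT18, KRT19, CDH1 and CDX2 were read with at least 260 counts in each library, whereas KRT20, CDH17 and VIL1, markers of mature intestinal epithelium, had at most 7 counts. Serum raised KRT8 (22.9%), KRT18 (26.4%), KRT19 (30.6%) and CDH1 (12.4%) in DMSO-treated cells, and the summed epithelial markers went from 1154 to 1207 CPM in DMSO-S0 to 1324 to 1420 CPM in DMSO-S30 and from 1178 to 1326 CPM in dTAG-S0 to 1381 to 1580 CPM in dTAG-S30. All 4 were called by edgeR, also in dTAG-treated cells, and EPCAM and CDX2 were not. Of 12 markers of fibroblasts, endothelium and blood cells, 11 had at most 55 counts in any library. The exception was the collagen gene COL1A1, which had 250 to 1789 counts and was 5.59-fold higher in DMSO-S30 than in DMSO-S0, so that the summed fibroblast markers went from 13.8 to 16.4 CPM in DMSO-S0 to 79.4 to 85.9 CPM in DMSO-S30 and from 12.4 to 15.2 CPM in dTAG-S0 to 66.2 to 78.3 CPM in dTAG-S30. The other 3 fibroblast markers, COL1A2, COL3A1 and PDGFRB, had at most 15 counts. What part the rises of these markers have in the values below was not tested. In bulk RNA, fewer cells that express a gene and less RNA per cell cannot be told apart.

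Promoter sequences (250 bases before to 50 after the start, RefSeq, GRCh38.p14) were taken for 8 of the 10 members. Those of DUSP4 and DUSP5, which are among the 5 members that rose most with serum, were not searched. Whether they hold the motifs below was therefore not tested. Each sequence taken was searched on both strands for the letters of motifs known from genes that answer growth factors and cAMP. These were the cAMP response element (CRE) TGACGTCA, its core TGACG, which lies in each CRE once per strand, the AP-1 site TGANTCA, the EGR site GCGGGGGCG and the CArG box bound by SRF. The 3 promoters that held a full CRE or an EGR site are shown, because they belong to 3 of the 5 members that rose most with serum. They are written 5′ to 3′ on the gene's own strand, with matches to CRE, core or EGR site in capitals. The DUSP1 promoter is at chr5:172771146-172771445, that of DUSP8 at chr11:1572222-1572521 and that of DUSP2 at chr2:96145391-96145690, all on the minus strand.
DUSP1: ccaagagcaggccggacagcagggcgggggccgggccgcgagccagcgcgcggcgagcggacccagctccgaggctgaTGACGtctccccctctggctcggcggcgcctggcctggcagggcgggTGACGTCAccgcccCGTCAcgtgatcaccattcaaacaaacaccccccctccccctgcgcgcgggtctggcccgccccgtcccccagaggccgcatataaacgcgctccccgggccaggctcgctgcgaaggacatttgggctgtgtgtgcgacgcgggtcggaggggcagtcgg
DUSP8: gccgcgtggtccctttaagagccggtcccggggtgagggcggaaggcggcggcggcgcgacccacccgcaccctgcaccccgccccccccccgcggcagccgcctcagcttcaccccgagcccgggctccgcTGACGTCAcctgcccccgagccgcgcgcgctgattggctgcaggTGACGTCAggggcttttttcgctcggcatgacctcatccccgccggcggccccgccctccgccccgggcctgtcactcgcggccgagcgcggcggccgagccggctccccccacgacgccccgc
DUSP2: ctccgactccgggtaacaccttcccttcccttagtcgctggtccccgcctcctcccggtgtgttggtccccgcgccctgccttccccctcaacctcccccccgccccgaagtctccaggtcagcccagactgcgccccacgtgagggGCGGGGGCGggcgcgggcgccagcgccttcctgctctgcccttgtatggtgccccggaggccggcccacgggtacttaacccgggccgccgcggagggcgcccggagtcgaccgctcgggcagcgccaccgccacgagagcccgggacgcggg
DUSP1 held 1 CRE, at -125 to -118 from the start, with a second pair of cores on its flanks at -172 to -168 and -111 to -107. DUSP8 held 2 CREs, at -118 to -111 and at -74 to -67. DUSP2 held 1 EGR site, at -103 to -95. Of 35116 promoters of this length, 1.85% held a CRE, 24.6% the core, 5.07% the EGR site, 7.71% the AP-1 site and 1.29% a CArG box. DUSP10 held the core 1 time, in the second of its 2 promoters, and the AP-1 site and the CArG box were in none of the windows searched. The RefSeq start of DUSP8 lies 351 bases upstream of the start that the count table uses, while those of DUSP1 and DUSP2 are the same base. These matches describe letters only, and binding was not measured.

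The 10 genes lie at 10 separate loci, given here in hg38 as the table has them. DUSP1 lies at chr5:172768090-172771195, DUSP2 at chr2:96143166-96145440, DUSP4 at chr8:29333064-29350668 and DUSP5 at chr10:110497838-110511544. DUSP6 lies at chr12:89347232-89353271, DUSP7 at chr3:52048919-52056550 and DUSP8 at chr11:1554044-1571920. DUSP10 lies at chr1:221701424-221742176, DUSP14 at chr17:37489831-37513501 and DUSP16 at chr12:12474210-12562383. DUSP5 and DUSP14 are on the plus strand and the other 8 on the minus strand. Reads were counted over whole genes, introns included, and the genes differ widely in how much of their span is exon. By GENCODE v44 exons make up 84.8% of DUSP2 and 64.8% of DUSP1, which span 2.28 and 3.11 kb, but 18.5% of DUSP5, 8.09% of DUSP16 and 6.94% of DUSP10, which span 13.7, 88.2 and 40.8 kb. The counts of DUSP1, DUSP6, DUSP8 and DUSP16 are less certain than the others, because a long noncoding RNA gene on the other strand overlaps each of them and the strand setting of the counting is not given in the sources used here. For DUSP1 the overlap is the whole 3106 bp of the gene.

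Starved cells already expressed all 10 genes, with DUSP6 far ahead. Per kb of gene span, DUSP6 was at 70.5 ± 3.23 CPM in DMSO-S0 (SD, n = 3), followed by DUSP5 at 8.54 ± 0.165. DUSP4 (3.04 ± 0.104), DUSP1 (2.59 ± 0.387), DUSP2 (2.33 ± 0.347) and DUSP7 (2.22 ± 0.300) came next, and each overlapped its neighbour in this order. DUSP14 (0.966 ± 0.0648) stood apart from both neighbours, and DUSP16 (0.319 ± 0.0204) overlapped DUSP8 (0.281 ± 0.0281), with DUSP10 lowest at 0.125 ± 0.0167 CPM per kb. After 30 min of serum the order was different. In DMSO-S30, DUSP5 led at 159 ± 5.02 CPM per kb of span, ahead of DUSP6 (94.9 ± 0.463), DUSP2 (76.7 ± 7.17), DUSP1 (54.1 ± 2.80) and DUSP4 (15.4 ± 1.54), none of which overlapped the next. DUSP7 (2.66 ± 0.165) and DUSP8 (2.51 ± 0.277) overlapped, and DUSP14 (1.15 ± 0.0487), DUSP16 (0.352 ± 0.00902) and DUSP10 (0.162 ± 0.0203) stood below them. The order was the same in dTAG-S30, led by DUSP5 (144.8 ± 4.01) and DUSP6 (87.7 ± 3.96), and the order of dTAG-S0 differed from that of DMSO-S0 only in that DUSP8 (0.425 ± 0.0313) stood above DUSP16 (0.369 ± 0.0189) without overlap. Scaling by exon length in place of gene span kept DUSP6 first without serum (110.3 CPM per kb of exon) and DUSP5 first with serum (862), but it moved DUSP14 to the third place in DMSO-S0 (9.38) and set DUSP8 last (1.01). In dTAG-S0 DUSP8 was also last per kb of exon (1.53), below DUSP16 (4.57), so it stood above DUSP16 per kb of span only. DUSP2 and DUSP1 overlapped per kb of exon in DMSO-S30 (84.3 to 100.1 and 79.4 to 88.0) and in dTAG-S30 (71.2 to 81.2 and 71.9 to 79.0).

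**Figure D1:**
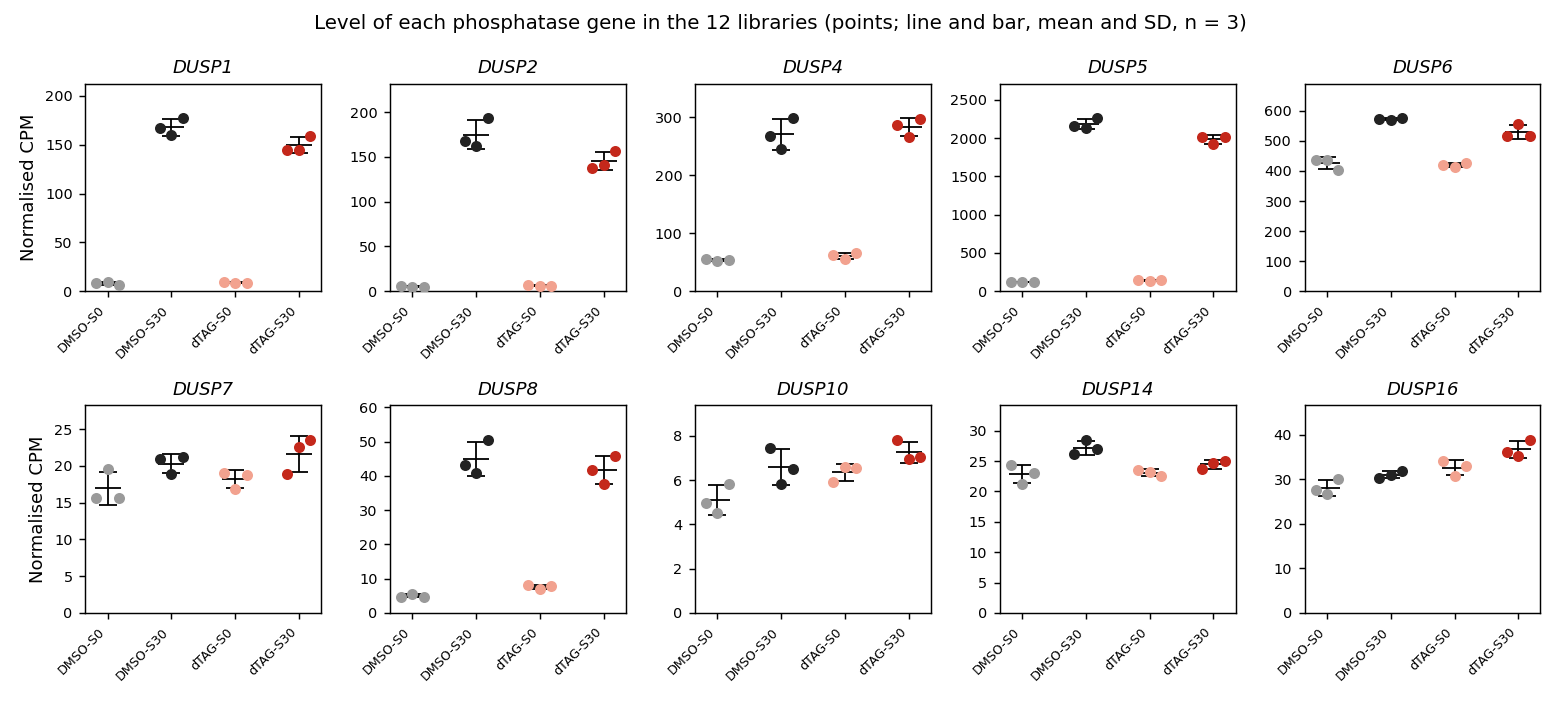
Normalised CPM (vertical axes, linear and starting at 0, a different range for each gene) of the 10 phosphatase genes in the 4 groups. Points are the 3 libraries of a group, horizontal lines and bars the mean and SD. DUSP1, DUSP2, DUSP4, DUSP5, DUSP6 and DUSP8 are higher in each of the 6 libraries with serum than in each of the 6 without, while DUSP7, DUSP10, DUSP14 and DUSP16 overlap.

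Serum raised 7 of the 10 genes in DMSO-treated cells (DUSP1, DUSP2, DUSP4, DUSP5, DUSP6, DUSP8 and DUSP14) at an adjusted p under 0.05 by edgeR's quasi-likelihood test with Benjamini-Hochberg adjustment over all 13093 genes tested. None fell, and all 10 estimates were above 0, as were 36.1% over all genes. Of all genes tested 26.3% were called in this comparison and 9.19% were called higher, so that 35.0% of the calls were rises, against 61.4% of the calls under TMM scaling, another way to set library sizes. The median log2 fold change was 1.39 over the 10 members and -0.07 over all genes tested. At least a 2-fold rise was seen in 5 members (DUSP1, DUSP2, DUSP4, DUSP5 and DUSP8), against 2.20% of all genes. These 5 ranked 13 (DUSP2), 21 (DUSP1), 26 (DUSP5), 44 (DUSP8) and 80 (DUSP4) by size of the rise among the 13093 genes. In dTAG-treated cells serum raised 6 of the 10, all of the former but DUSP14, where 24.6% of all genes were called and 9.13% were called higher (37.2% of the calls, against 61.7% under TMM scaling). The median there was 1.26 over the members and -0.06 over all genes.

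**Figure D2:**
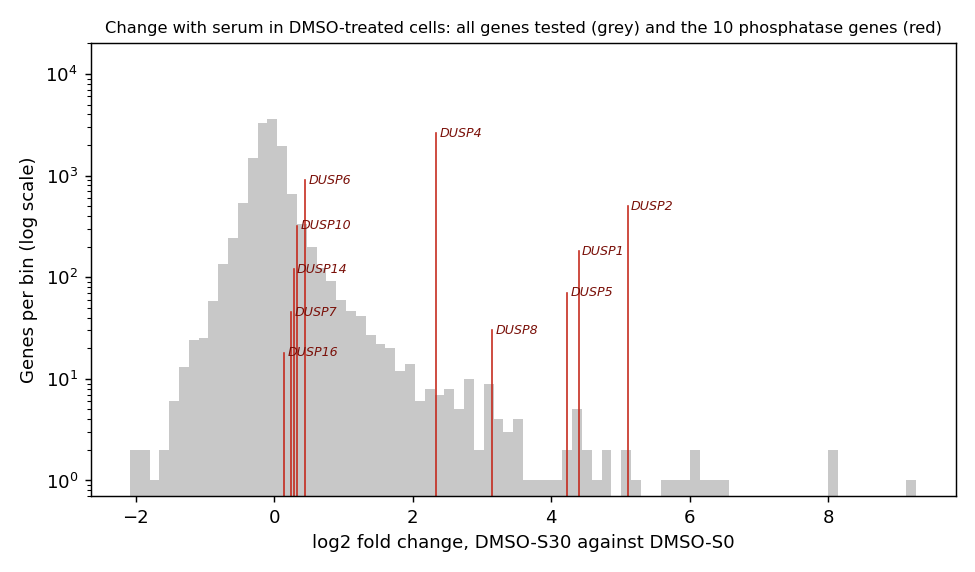
Distribution of the log2 fold change with serum in DMSO-treated cells (horizontal axis) over the 13093 genes tested (grey, genes per bin on a log scale), with the 10 phosphatase genes as red lines whose height has no meaning. DUSP2, DUSP1, DUSP5, DUSP8 and DUSP4 lie in the sparse right tail, and the other 5 lie between 0.14 and 0.44, on the right flank of the bulk.

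Among the nuclear members, DUSP2 (PAC-1) had the largest relative rise. Its levels were 6.20, 4.77 and 4.91 CPM in the DMSO-S0 libraries and 168, 163 and 193 CPM in DMSO-S30, and they were 6.58, 5.76 and 5.75 CPM in dTAG-S0 and 137, 141 and 157 CPM in dTAG-S30. Every library with serum was more than an order of magnitude above every library without, and the 3 dTAG-S30 libraries lay below the 3 DMSO-S30 libraries. The rise was 34.4-fold in DMSO-treated cells (log2 5.10 ± 0.0950 SE, adjusted p = 9.55e-25) and 23.6-fold in dTAG-treated cells (log2 4.56 ± 0.0892 SE, adjusted p = 3.44e-24). The starved level rested on 100 to 140 counts per library.

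DUSP1 (MKP-1), which acts on JNK and p38 as well as ERK, had the second largest rise. It was at 8.11, 9.22 and 6.82 CPM in DMSO-S0, at 167, 159.8 and 177 CPM in DMSO-S30, at 9.03, 8.40 and 8.91 CPM in dTAG-S0 and at 145, 145 and 159 CPM in dTAG-S30. The groups with and without serum were far apart, and the starved groups overlapped each other. Serum raised DUSP1 21.0-fold in DMSO-treated cells (95% confidence interval 18.6 to 23.8) and 16.9-fold in dTAG-treated cells (15.0 to 19.0).

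DUSP5, a nuclear phosphatase that acts on ERK alone, reached the highest level of the members. Its DMSO-S0 libraries were at 118, 114 and 118 CPM and its DMSO-S30 libraries at 2164, 2128 and 2261 CPM, and its dTAG-S0 libraries were at 141, 139 and 152 CPM and its dTAG-S30 libraries at 2016, 1922 and 2018 CPM. No group overlapped another: dTAG-S0 was above DMSO-S0, whereas dTAG-S30 was below DMSO-S30. The rise with serum was 18.7-fold in DMSO-treated cells (16.9 to 20.7) and 13.8-fold in dTAG-treated cells (12.5 to 15.1). DUSP5 also had the smallest standard error of these nuclear members (0.0707 and 0.0669 on the log2 scale), with 2235 to 48311 counts per library.

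DUSP4 (MKP-2), the fourth nuclear member, started from a higher level and rose less. It was at 55.2, 51.6 and 53.9 CPM in DMSO-S0, 268, 244 and 298 CPM in DMSO-S30, 62.9, 55.6 and 65.8 CPM in dTAG-S0 and 287, 265 and 296 CPM in dTAG-S30. Here the serum groups overlapped each other. The rise was 5.07-fold in DMSO-treated cells (4.53 to 5.66) and 4.60-fold in dTAG-treated cells (4.14 to 5.11).

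Of the cytoplasmic ERK phosphatases, DUSP6 rose far less than the nuclear members and DUSP7 did not pass the test. DUSP6 (MKP-3) was at 438, 436 and 403 CPM in DMSO-S0 and at 574, 570.0 and 575 CPM in DMSO-S30, and at 421, 414 and 428 CPM in dTAG-S0 and 515, 557 and 516 CPM in dTAG-S30. All 6 libraries with serum lay above all 6 without, and the dTAG-S30 libraries lay below the DMSO-S30 libraries. It rose by 36.0% in DMSO-treated cells (95% confidence interval 25.0 to 47.9%, adjusted p = 1.72e-06) and by 25.1% in dTAG-treated cells (15.3 to 35.6%, adjusted p = 0.000122). DUSP7 (MKP-X), with 15.6 to 19.6 CPM without serum and 18.9 to 23.5 CPM with it, overlapped between the groups. Its differences of 0.25 in DMSO- and in dTAG-treated cells (log2) did not pass (adjusted p = 0.085 and 0.0717), although they passed in 6 and 5 of 9 other ways of fitting the data and in 4 and 6 of the 12 fits without 1 library. Without DMSO-S0 replicate 2, the highest starved DMSO library, the value in DMSO-treated cells was 0.42 (adjusted p = 0.00354), and without dTAG-S30 replicate 1, the lowest of its group, that in dTAG-treated cells was 0.39 (adjusted p = 0.00702).

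Of the phosphatases that prefer JNK and p38, DUSP8 rose with serum, and DUSP10 and DUSP16 did not pass the test. DUSP8 was among the lowest of the members in starved cells, at 4.66, 5.60 and 4.81 CPM in DMSO-S0 and 8.04, 6.97 and 7.79 CPM in dTAG-S0. It reached 43.3, 41.0 and 50.5 CPM in DMSO-S30 and 41.8, 37.5 and 45.8 CPM in dTAG-S30. The starved groups did not overlap, with dTAG-S0 the higher, while the groups with serum did. Serum raised it 8.86-fold in DMSO-treated cells (95% confidence interval 7.52 to 10.4) and 5.50-fold in dTAG-treated cells (4.74 to 6.38), on 88 to 1045 counts per library. DUSP10 (MKP-5) was at 4.49 to 5.84 CPM in DMSO-S0 and 5.82 to 7.46 CPM in DMSO-S30, which overlapped, and at 5.92 to 6.58 CPM in dTAG-S0 and 6.93 to 7.81 CPM in dTAG-S30, which did not. Its log2 differences of 0.33 and 0.22 did not pass (adjusted p = 0.093 and 0.245), and with at most 174 counts per library the interval in DMSO-treated cells ran from 0.03 to 0.62. DUSP16 (MKP-7) was at 26.6 to 30.1 CPM in DMSO-S0, 30.2 to 31.8 CPM in DMSO-S30, 30.7 to 34.0 CPM in dTAG-S0 and 35.2 to 38.8 CPM in dTAG-S30. Its groups with serum lay just above those without in both treatments, but the log2 differences of 0.14 and 0.18 did not pass (adjusted p = 0.195 and 0.0827). TMM scaling took DUSP16 past the threshold in both treatments and DUSP10 in DMSO-treated cells.

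DUSP14 (MKP-6), the small member without a docking domain, was at 24.3, 21.2 and 23.1 CPM in DMSO-S0, 26.2, 28.5 and 26.9 CPM in DMSO-S30, 23.6, 23.2 and 22.5 CPM in dTAG-S0 and 23.6, 24.7 and 25.0 CPM in dTAG-S30. It rose by 21.5% in DMSO-treated cells (8.75 to 35.8%, adjusted p = 0.00868). The value in dTAG-treated cells was 4.54% (-6.12 to 16.4%, adjusted p = 0.583). The call in DMSO-treated cells was lost without DMSO-S0 replicate 2, the lowest library (log2 0.22, adjusted p = 0.0551), and the difference between the treatments did not pass (adjusted p = 1).

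**Figure D3:**
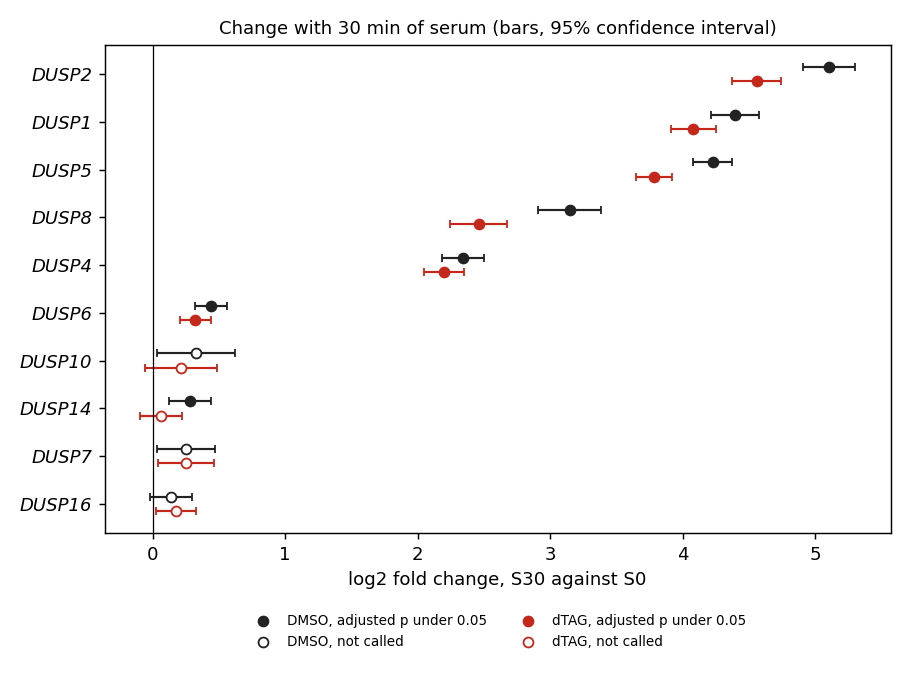
Fitted log2 fold change with 30 min of serum (horizontal axis) for each gene in DMSO-treated (black) and dTAG-treated (red) cells, with 95% confidence intervals. Filled points passed an adjusted p of 0.05. DUSP2, DUSP1, DUSP5, DUSP8 and DUSP4 lie between 2.20 and 5.10 and the other 5 genes between 0.06 and 0.44.

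As DUSP5 rose far more than DUSP6, the leading gene among the phosphatase reads changed with serum. DUSP6 gave 61.9% ± 1.24 of the reads of the 10 genes in DMSO-S0 (SD, n = 3) and 16.4% ± 0.524 in DMSO-S30. DUSP5 gave 17.0% ± 0.636 in DMSO-S0 and 62.4% ± 0.348 in DMSO-S30. In dTAG-treated cells the share of DUSP6 went from 57.8% ± 0.732 to 16.4% ± 1.05 and that of DUSP5 from 19.7% ± 0.466 to 61.6% ± 0.806. DUSP4 kept a similar share throughout, with means of 7.71 to 8.77%. The 10 genes together took 0.0698% ± 0.00128 of all gene counts in DMSO-S0, 0.343% ± 0.0132 in DMSO-S30, 0.0743% ± 0.00133 in dTAG-S0 and 0.318% ± 0.00849 in dTAG-S30. These are shares of reads, which weigh long genes and intron-rich genes more.

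**Figure D4:**
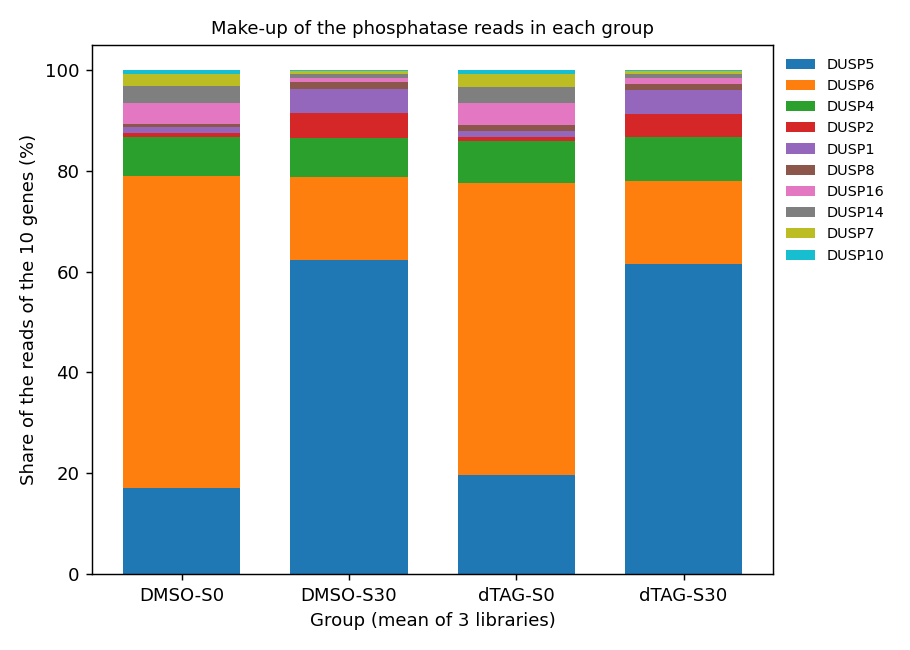
Share of the reads of the 10 phosphatase genes taken by each gene (vertical axis, percent, stacked) in each group, as the mean of 3 libraries. DUSP6 (orange) holds 61.9% and 57.8% without serum, and DUSP5 (blue) holds 62.4% and 61.6% with serum.

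In starved cells dTAG raised 2 of the 10, DUSP5 and DUSP8, where 1.34% of all genes were called and 0.878% were called higher. DUSP5 was 23.3% higher in dTAG-S0 than in DMSO-S0 (95% confidence interval 12.7 to 34.9%, adjusted p = 0.00993 by edgeR). DUSP8 was 1.50-fold higher (1.24 to 1.82, adjusted p = 0.0196). DUSP8 lost this call without any of 4 libraries, DMSO-S0 replicates 1 and 3 and dTAG-S0 replicates 1 and 3 (log2 0.54 to 0.57), and DUSP5 lost it without dTAG-S0 replicate 3 (log2 0.26, adjusted p = 0.0622). The 3 dTAG-S0 libraries lay above the 3 DMSO-S0 libraries for 5 members (DUSP4, DUSP5, DUSP8, DUSP10 and DUSP16), as they did for 8.50% of all genes. DUSP4 (log2 0.20), DUSP10 (0.29) and DUSP16 (0.21) had 95% intervals above 0 before adjustment and did not pass (adjusted p = 0.257, 0.408 and 0.215). An unadjusted p under 0.05 by edgeR was seen for 5 members, as for 11.7% of all genes. Of the 10 estimates 9 were above 0, as were 47.6% over all genes, with a median of 0.21 against -0.01 over all genes, and DUSP6 was at -0.01 (interval -0.12 to 0.11). DUSP1 (0.13) and DUSP2 (0.23) had intervals that include 0.

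With serum present, dTAG lowered 1 of the 10, DUSP2, where 1.23% of all genes were called and 0.634% were called lower. DUSP2 was at 145 ± 10.1 CPM in dTAG-S30 against 175 ± 16.3 CPM in DMSO-S30 (SD, n = 3) and fell by 19.8% (95% confidence interval -27.4 to -11.4%, adjusted p = 0.0153 by edgeR). This call was lost with library sizes taken from the ERCC spike-ins (log2 -0.27, adjusted p = 0.365), without DMSO-S30 replicate 3, the highest library (-0.24, adjusted p = 0.233), and without dTAG-S30 replicate 2 (-0.30, adjusted p = 0.0618). All 3 dTAG-S30 libraries lay below all 3 DMSO-S30 libraries for 5 members (DUSP1, DUSP2, DUSP5, DUSP6 and DUSP14), as for 8.10% of all genes, and above them for DUSP16, as for 7.62% of all genes. The estimates of DUSP1 (log2 -0.18), DUSP14 (-0.18), DUSP5 (-0.14) and DUSP6 (-0.13) had 95% intervals below 0 before adjustment and did not pass (adjusted p = 0.268, 0.362, 0.377 and 0.43). DUSP16, at 36.7 ± 1.86 CPM against 31.0 ± 0.795 CPM, was 18.7% above DMSO-S30 (6.59 to 32.2%) and did not pass either (adjusted p = 0.135). An unadjusted p under 0.05 by edgeR was seen for 6 members, as for 10.4% of all genes. Of the 10 estimates 6 were below 0, as were 50.2% over all genes, and the median of the members was -0.11 against 0.00 over all genes.

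**Figure D5:**
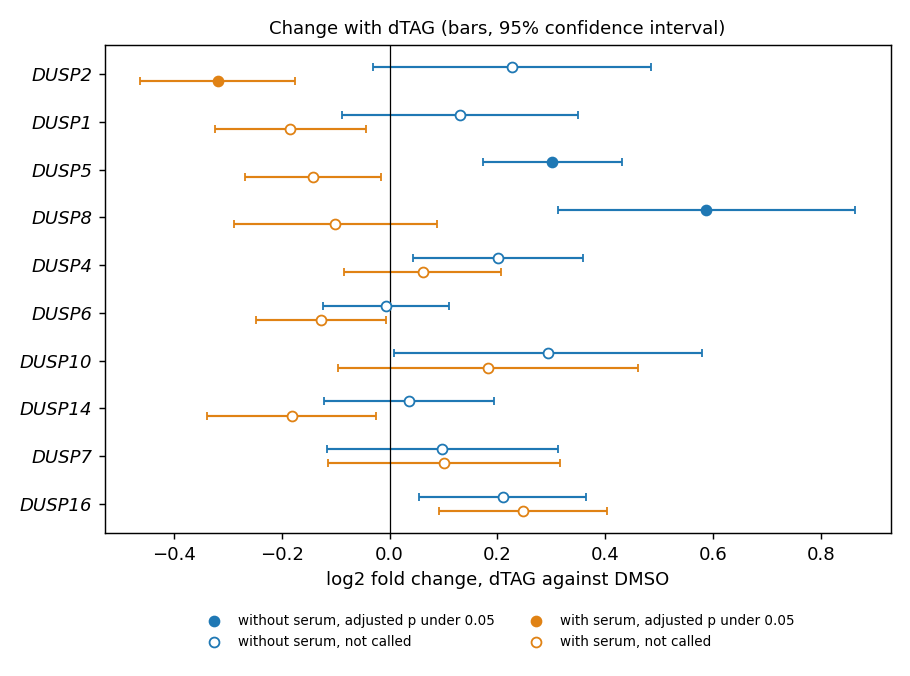
Fitted log2 fold change of dTAG against DMSO (horizontal axis) without serum (blue) and with 30 min of serum (orange) for each gene, in the order of the serum response, with 95% confidence intervals. Filled points passed an adjusted p of 0.05, which were DUSP5 (0.30) and DUSP8 (0.59) without serum and DUSP2 (-0.32) with serum. For DUSP2, DUSP1, DUSP5, DUSP8 and DUSP14 the estimate is above 0 without serum and below 0 with it.

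Whether the serum response itself differed was tested as the interaction, the serum effect in dTAG-treated cells less that in DMSO-treated cells. None of the 10 genes passed by edgeR (0 of 10, where 0.0382% of all genes were called), 4 had an unadjusted p under 0.05 (DUSP1, DUSP2, DUSP5 and DUSP8), as had 3.18% of all genes, and DESeq2 called 1, DUSP5. The 4 are also the members with the largest rise in DMSO-treated cells, and the serum effects share their libraries with the dTAG effects above, so these values are not separate evidence. For DUSP5 the interaction was -0.44 ± 0.0901 SE on the log2 scale (95% confidence interval -0.63 to -0.26, unadjusted p = 4.18e-05, adjusted p = 0.0717). This was the closest to the threshold, and it passed in 5 of 8 other ways of fitting the data (range of adjusted p 2.02e-06 to 0.2) and in 6 of the 12 fits without 1 library (0.00972 to 0.534). DUSP8 had the largest estimate, -0.69 (-1.03 to -0.35, adjusted p = 0.355), DUSP2 was at -0.54 (-0.85 to -0.24, adjusted p = 0.488) and DUSP1 at -0.31 (-0.58 to -0.05, adjusted p = 1). DUSP4 (-0.14), DUSP6 (-0.12), DUSP10 (-0.11) and DUSP14 (-0.22) had intervals that include 0, as had DUSP7 (0.00) and DUSP16 (0.04). The median of the 10 was -0.18 against 0.00 over all genes.

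The rest of the pathway was described with 7 lists holding 96 genes, of which 87 were tested. In DMSO-treated cells serum raised 12 of the 87 (13.8%, against 9.19% of all genes) and lowered 18 (20.7%, against 17.1% of all genes) by edgeR. With only the scaling changed to TMM the numbers were 14 and 3, and by DESeq2 they were also 14 and 3. In dTAG-treated cells 9 rose (10.3%, against 9.13% of all genes) and 12 fell (13.8%, against 15.4% of all genes), and both with TMM scaling and by DESeq2 12 rose and 6 fell. The values that follow are for serum in DMSO-treated cells unless stated. Among 14 other dual-specificity phosphatases tested, 2 rose and 4 fell. DUSP3 (VHR), which also acts on ERK and JNK, rose from 27.7 ± 1.96 to 46.2 ± 1.45 CPM (log2 0.73, adjusted p = 1.96e-08), and SSH1, which acts on cofilin, rose by 0.27. DUSP12 (-0.47), DUSP22 (-0.31) and STYXL1 (-0.28) had the largest falls of this list. None of the 4 tested phosphatases of other classes that act on MAP kinases passed by edgeR in DMSO-treated cells, where 1 had an unadjusted p under 0.05. In dTAG-treated cells PPM1A (log2 -0.18, adjusted p = 0.0355) and PPM1B (-0.17, adjusted p = 0.043) passed, against -0.09 (adjusted p = 0.282) and -0.16 (adjusted p = 0.0584) in DMSO-treated cells, and the difference between the treatments did not pass for either (interaction -0.08 and -0.01, adjusted p = 1 for both).

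The counts per list below stand beside 9.19% of all genes called higher and 17.1% called lower. Of the 14 MAP kinases none rose with serum in DMSO-treated cells and 3 fell, which were MAPK7 (ERK5, -0.40), NLK (-0.25) and MAPK14 (p38 alpha, -0.19). MAP2K3, which activates p38, was the 1 of 7 MAP kinase kinases that rose, from 46.2 ± 1.55 to 183.9 ± 13.8 CPM (4.02-fold), MAP2K6, which also activates p38, was at -0.06 (adjusted p = 0.823), and MAP2K5 (-0.29) fell. Of 17 MAP3K and RAF kinases 3 rose, MAP3K8 (TPL2, 3.77-fold), MAP3K11 (0.32) and MAP3K13 (0.28), and 4 fell, with MAP3K10 (-0.32), MAP3K1 (-0.25) and MAP3K3 (-0.20) in front. Between the receptor and RAS the adaptor SHC1 (0.36) was the 1 of 15 genes that rose, and 4 fell, GAB1 (-0.30), NF1 (-0.20) and SOS1 (-0.18) among them. Of 16 kinases and factors that MAP kinases activate, 5 rose, led by the transcription factor SRF (6.61-fold), MAPKAPK2 (0.78) and ELK1 (0.21), and the 2 that fell were MKNK1 (-0.26) and ATF2 (-0.21). Of the 25 genes named from these lists, the 10 that rose also passed under TMM scaling, but of the 15 that fell only DUSP12 and STYXL1 did. No gene of the 7 lists passed in either dTAG comparison or in the interaction by edgeR or by DESeq2, where 9, 7 and 0 of the 87 had an unadjusted p under 0.05 by edgeR, against 11.7%, 10.4% and 3.18% of all genes.

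For each member the gene with the most similar pattern was taken as the one with the highest Pearson's r of log2 CPM over the 12 libraries, given as a description. The libraries form clusters with and without serum, so that genes that rise strongly with serum correlate with one another. For this reason r within the 6 libraries of each kind is given after the r over all 12. Each partner was chosen on these same libraries, so the r within each kind is not independent of the choice. DUSP1 was most like the nuclear receptor gene NR4A1 (r = 0.9987, 0.8156 with serum, 0.5343 without) and DUSP5 was most like NR4A2 (0.9995, 0.9486 and 0.8512). DUSP2 was most like AVPI1 (0.9989, 0.8519 and 0.7787), DUSP4 most like GPRC5A (0.9985, 0.7506 and 0.9274) and DUSP8 most like JUN (0.998, 0.8301 and 0.9559). The weak responders had lower values over the 12 libraries. The lowest was 0.9061 for DUSP14 with DDAH1 (0.8007 with serum, 0.7846 without), and the highest was 0.986 for DUSP6 with YTHDF3 (0.9024 and 0.5342). DUSP7 went with MAGEA3 (0.9201, 0.7773 and 0.9021), DUSP10 with EGFR (0.9288, 0.906 and 0.9246) and DUSP16 with MVD (0.9458, 0.9714 and 0.8882). Between members the highest r over the 12 libraries was that of DUSP2 with DUSP5 (0.9985) and the lowest that of DUSP14 with DUSP16 (0.1965).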

How the data were processed

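RNA-Seq was done on 12 libraries of ribosomal RNA-depleted RNA with ERCC spike-ins. Per the labels and the methods, the authors trimmed reads with Trim Galore 0.6.4, mapped them to hg38 with STAR and counted them with featureCounts (Subread 1.6.3) over whole protein-coding genes, and what they deposited are unnormalised read counts for each gene. Counting introns adds unspliced RNA. Libraries titled Serum_0_30 were read as those without serum, and their columns of counts are named SS, for serum starved.

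Upper-quartile scaling was applied to the counts, 1 factor of unwanted variation was estimated from 69 ERCC transcripts (RUVg), and all 4 groups were fitted together with edgeR 4.0.16 under R 4.3.3 (quasi-likelihood F-test, two-sided), with Benjamini-Hochberg adjustment over the 13093 genes that reached 10 counts in 6 or more libraries (6808 did not). A gene was called at an adjusted p under 0.05. The tests were checked on simulated counts. Normalised CPM are counts per 1000000 of the scaled library size, SEs are the log2 fold change over the square root of F, and intervals are 95% intervals that cover counting error and the spread between libraries. Log2 CPM used a prior count of 2. Alternatives were TMM scaling, ERCC library sizes, DESeq2 1.42.0, no or 2 factors, no filter, the likelihood ratio test, only the groups compared, the replicate number as a block and each library left out. No pair of replicates was 1 library deposited again, as the chi-square of their counts was 3.02 to 9.80 per degree of freedom. Exons and overlaps came from GENCODE v44, while the authors' annotation version is not given in the sources used here.

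All 10 members were named throughout. From each pathway list, genes called in a dTAG comparison or the interaction were to be named, and for serum in DMSO-treated cells the 3 called genes with the largest rise and the 3 with the largest fall. PPM1A, PPM1B and MAP2K6 were named after their values were seen. The members, lists and tests were chosen with earlier results of these data known.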

Additional observations from a re-analysis of the deposited data

How the results depend on the processing

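Over the members and comparisons, 411 values under the 9 other settings kept their direction and side of the threshold, 22 came to pass it, 1 no longer passed and 6 changed sign; without 1 library these numbers were 556, 18, 8 and 18. Of the members, serum in DMSO-treated cells raised 7 to 10 under the 9 other settings (10 with TMM) and 7 to 8 without 1 library, and serum in dTAG-treated cells raised 6 to 8 in either case. For dTAG without serum the 2 calls became 0 to 2 without 1 library, with 0 without dTAG-S0 replicate 3. For dTAG with serum the 1 call became 0 with ERCC library sizes and 0 to 1 without 1 library. The interaction, with 0 calls, had 1 under DESeq2, with no factor, with 2 factors and by the likelihood ratio test, 2 without the filter (DUSP5 and DUSP8) and 0 to 2 without 1 library, with 2 without dTAG-S30 replicate 3. The causes of these shifts were not tested.

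The values that changed sign were not called, and the one farthest from 0 was -0.1626 (DUSP7, interaction, without DMSO-S0 replicate 2). They were DUSP6 for dTAG without serum (0.0011 with TMM, 0.0166 with ERCC library sizes, 0.0332 with only the 2 groups, and -0.0469 to 0.0066 without 1 library) and DUSP7 for the interaction (-0.0478 with ERCC library sizes, -0.0055 with DESeq2, -0.0097 with no factor, and -0.1626 to 0.159 without 1 library). Without 1 library so did DUSP4 (-0.0264 to 0.145) and DUSP8 (-0.1867 to 0.0095) for dTAG with serum, DUSP14 for dTAG without serum (-0.038 to 0.0539) and DUSP16 for the interaction (-0.0444 to 0.0685).

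Over all genes, serum called 1766 genes in DMSO-treated and 1646 in dTAG-treated cells with ERCC library sizes, against 3441 and 3217, and 66.5% and 62.5% of these were rises. dTAG without serum called 76 with ERCC library sizes, 306 without the filter, 289 by the likelihood ratio test and 102 to 297 without 1 library, against 176. dTAG with serum called 66, 306 and 268 under those settings, 312 with only the 2 groups and 95 to 257 without 1 library, against 161. The interaction called 3 with ERCC library sizes, 23 without the filter, 11 by DESeq2, 10 by the likelihood ratio test, 9 with 2 factors and 5 to 14 without 1 library, against 5. Of the calls for dTAG without serum 65.3% were higher, against 80.3% with ERCC library sizes, 53.6% without the filter and 54.8% with only the 2 groups.

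The replicate numbers showed no clear pairing of the libraries. Over 18 pairs of same-numbered libraries r of the deviations was -0.1526 to 0.1393, and in 8 of the 18 a library correlated best with its own number in the other group. Every DMSO-S0 library did so with DMSO-S30 (r 0.0506 to 0.0637), and no dTAG-S0 library did so with dTAG-S30. With the replicate number as a block, 7, 6, 2, 1 and 0 members were called in the 5 comparisons, as without it. Depth limits DUSP10, DUSP2 and DUSP8 most, with as few as 94, 100 and 88 counts in a starved library.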
